A study of Mus musculus with 4 samples.

Results

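C-type lectin receptors are surface proteins of myeloid cells that bind sugars, lipids and signs of cell damage. Chromatin accessibility around 10 of their genes (Clec4a1, Clec4a2, Clec4a3, Clec4d, Clec4e, Clec4n, Clec7a, Clec5a, Clec12a and Clec9a) was followed in mouse bone marrow-derived macrophages (BMDMs) by ATAC-seq, in which the Tn5 transposase cuts and tags open DNA. The peaks of all libraries were merged into regions wherever they overlapped by at least 1 bp, and a region belonged to a gene when the highest of its peaks carried that gene name in the files. In this way 31 of the 60710 regions were assigned to these receptors, and each of the 10 genes had at least 1 region. The cells came from wild-type mice on the C57BL/6 background aged 8 to 12 weeks, and had been differentiated from bone marrow for 6 days in L929 supernatant, which supplies macrophage colony-stimulating factor (MCSF). The control group (n = 2 libraries) received no further stimulus, and the other group (n = 2 libraries) received IL-4 at 20 ng/ml for 1 h. The methods describe the replicates as biological. The comparison of these groups asked whether short IL-4 exposure, which activates the transcription factor STAT6, altered open chromatin at the receptor genes.

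Peak height here is the deposited score of each peak from the peak caller MACS2. The score has no stated unit and was read as −log10 of the q-value, although 0.749% of all peaks scored below 2, which on that scale is above the q-value limit of 0.01 in the study's methods. No peak of a receptor gene scored below 2. On this reading the height states the evidence for a peak over the background of its own library and grows with sequencing depth, which is unknown because the files hold no reads. The libraries held 39462 to 45250 peaks, with median heights of 6.41 to 8.04, both lowest in IL-4 replicate 2. Over all 25442 regions with a peak in every library medians were 12.5 and 11.0 for control and 11.1 and 8.86 for IL-4, and heights were therefore quantile-normalised before testing. Of 7 macrophage marker genes, Adgre1, Cd68, Fcgr1 and Spi1 had a promoter peak in all 4 libraries, Mertk in 3, and Csf1r and Itgam had none although 10 and 8 other regions bore their names. None of 4 T cell and none of 4 B cell marker genes had a promoter peak, whereas 2 of 4 neutrophil markers (S100a8 and Mmp8) had one in all 4 libraries and Ly6g and Camp had no region. Heights at the Mmp8 promoter were 14.7 and 15.7 in control and 5.34 and 8.47 in IL-4 libraries, those at the S100a8 promoter 6.63 and 6.18 against 6.62 and 2.49, without a called difference. Of the 8 regions named for the B cell markers, 4 had peaks in both control libraries alone (control-only, 4.33% of all regions), at Cd79b and Ms4a1. The only B cell region tested, in an intron of Ms4a1 at 21710 bp, had heights of 22.7 and 14.7 in control and 7.13 and 6.43 in IL-4 libraries (log2 change −1.20, limma unadjusted p = 0.00584, adjusted p = 0.378). Of the 5 T cell marker regions 1 was control-only. So were 3 of the 44 macrophage, 2 of the 15 type 1 dendritic cell and 0 of the 3 neutrophil marker regions. The type 1 dendritic cell markers included Clec9a, which is also a receptor gene of this report, and its region at −1721 bp was among those 2. Changes were below 0 at the 1 B cell and 2 neutrophil regions tested. For T cell markers 1 was above and 1 below 0, for macrophage markers 8 and 8, and for type 1 dendritic cell markers 3 and 4. The change at Clec9a −1419 bp was among those 4. Over all regions tested, 49.9% were above 0. The lowest macrophage marker change was −0.94, at Itgam −11676 bp (limma unadjusted p = 0.0111, adjusted p = 0.428), and the highest was 0.50. The lowest dendritic cell marker change was −1.66, at Flt3 20488 bp (limma unadjusted p = 0.00275, adjusted p = 0.318), and the highest was 0.21. The part of other cell types in the results below was not tested.

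The receptors divide by how they signal. Clec7a (Dectin-1), Clec4n (Dectin-2), Clec4e (Mincle), Clec4d (MCL), Clec5a (MDL-1) and Clec9a (DNGR-1) activate the kinase Syk, either through a tyrosine motif of their own or through partner adaptors such as FcRγ and DAP12. Syk can then signal through CARD9 to NF-κB, though not every receptor need use this route. Clec4a2 (DCIR) and Clec12a (MICL) instead carry an inhibitory tyrosine motif that recruits the phosphatases SHP-1 and SHP-2, while Clec4a1 and Clec4a3 encode close relatives of DCIR. These receptors let macrophages sense fungal cell walls, mycobacterial glycolipids, uric acid crystals and dying cells.

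All 10 genes lie on chromosome 6, in 3 places. Clec5a stands alone at chr6:40574898-40585805. A cluster of 368 kb holds Clec4a1, Clec4a3, Clec4a2, Clec4n, Clec4d and Clec4e, with 19 of the regions, and a second cluster of 123 kb holds Clec12a, Clec9a and Clec7a, with 10 regions. Coordinates are mm10 and sequences are from GRCm38.p6, the assembly behind mm10. Distances are those of the files, measured to the transcription start site (TSS), with negative values upstream.

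The sequences below are from the forward strand, 5′ to 3′, with matches to 5 searched motifs in capitals. These motifs were a STAT6-type site (TTC and GAA with 4 bases between), another STAT site (TTC and GAA with 3 bases between), a PU.1 site (GAGGAAGT), an AP-1 site (TGACTCA) and a C/EBP site (TTGC and AA with 2 bases between), on either strand. Shown first are 4 of the 5 regions that held a STAT6-type site, since IL-4 acts through STAT6. The capitals mark that site in each, and in Clec4a1 also a C/EBP site before it. Regions longer than 300 bases are given by their central part, and annotated exons were left out.
Clec5a −57 bp, chr6:40585806-40585959: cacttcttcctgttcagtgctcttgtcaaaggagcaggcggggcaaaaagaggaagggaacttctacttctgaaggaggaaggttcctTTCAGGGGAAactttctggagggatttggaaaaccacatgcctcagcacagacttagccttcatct
Clec4a1 −187 bp, chr6:122921498-122921797: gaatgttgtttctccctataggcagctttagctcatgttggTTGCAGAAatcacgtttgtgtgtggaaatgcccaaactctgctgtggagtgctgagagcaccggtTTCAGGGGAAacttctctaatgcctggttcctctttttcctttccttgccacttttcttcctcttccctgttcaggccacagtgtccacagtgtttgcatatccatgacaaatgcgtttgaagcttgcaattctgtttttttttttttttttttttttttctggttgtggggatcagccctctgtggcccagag
Clec4d −1673 bp, chr6:123260319-123260550: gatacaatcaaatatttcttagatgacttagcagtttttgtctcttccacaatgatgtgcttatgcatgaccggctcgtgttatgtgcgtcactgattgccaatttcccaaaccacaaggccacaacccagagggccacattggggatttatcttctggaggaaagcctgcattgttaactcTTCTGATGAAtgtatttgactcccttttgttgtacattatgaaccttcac
Clec7a −133 bp, chr6:129472786-129473010: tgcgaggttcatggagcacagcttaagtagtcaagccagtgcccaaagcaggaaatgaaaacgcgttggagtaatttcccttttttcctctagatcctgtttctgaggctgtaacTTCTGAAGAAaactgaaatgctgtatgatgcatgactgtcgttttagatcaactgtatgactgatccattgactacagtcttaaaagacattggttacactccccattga
The site was TTCAGGGGAA in the promoters of both Clec5a and Clec4a1, TTCTGATGAA upstream of Clec4d and TTCTGAAGAA in the Clec7a promoter.

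The next 2 sequences are from upstream regions of Clec5a and Clec4d. The Clec5a region had the tallest control peak among regions outside promoters. The Clec4d region was the closest to the enhancer 9 kb upstream of the Clec4d TSS that the study names. Capitals mark a PU.1 site on the reverse strand in the first, and an AP-1 site followed by a C/EBP site in the second.
Clec5a −9240 bp, chr6:40595010-40595309: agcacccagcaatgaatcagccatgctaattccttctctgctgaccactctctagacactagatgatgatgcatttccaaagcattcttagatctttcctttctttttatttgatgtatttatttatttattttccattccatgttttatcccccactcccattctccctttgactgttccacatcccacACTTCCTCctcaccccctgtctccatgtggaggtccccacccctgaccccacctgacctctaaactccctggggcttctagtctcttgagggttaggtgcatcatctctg
Clec4d −9100 bp, chr6:123252850-123253149: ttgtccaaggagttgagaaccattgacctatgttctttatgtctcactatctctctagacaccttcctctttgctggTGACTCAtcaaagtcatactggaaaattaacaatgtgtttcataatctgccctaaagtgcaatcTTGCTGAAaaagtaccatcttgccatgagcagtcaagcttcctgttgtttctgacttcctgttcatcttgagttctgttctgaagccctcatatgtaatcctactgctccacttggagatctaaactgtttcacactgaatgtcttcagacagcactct
The last 2 are the only regions of these genes confined to 1 group, with peaks in both of its libraries. The Clec12a region held none of the searched motifs, and capitals in the Clec9a region mark a STAT site with 3 bases between.
Clec12a −551 bp, chr6:129349627-129349771: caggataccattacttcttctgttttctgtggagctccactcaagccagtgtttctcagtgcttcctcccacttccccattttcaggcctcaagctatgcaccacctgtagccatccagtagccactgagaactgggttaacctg
Clec9a −1721 bp, chr6:129407086-129407229: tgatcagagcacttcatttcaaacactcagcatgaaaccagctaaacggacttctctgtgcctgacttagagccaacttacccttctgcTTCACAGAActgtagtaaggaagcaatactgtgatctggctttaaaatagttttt

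A STAT6-type site was found in 5 of the 31 regions (16.1%), measured in 300-bp windows on the region centre, against 9.0% of all 60710 regions. The other STAT site was in 4 (12.9%, against 8.87%), the PU.1 site in 4 (12.9%, against 10.4%), the AP-1 site in 8 (25.8%, against 18.9%) and the C/EBP site in 9 (29.0%, against 14.6%). A match describes letters of the reference and does not show that a factor was bound. Of the 5 regions with a STAT6-type site, 4 had a peak in every library and 1, at Clec4d, in 3 libraries.

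The receptor regions were mostly shared by all libraries and close to the genes. Of the 31 regions, 20 had a peak in all 4 libraries (64.5%, against 41.9% of all regions), 5 in 3 libraries, 4 in 2 libraries and 2 in 1 library. Promoter-TSS regions made up 10 of the 31 (32.3%, against 18.8%), and 12 were intergenic, 6 intronic, 2 at a transcript end and 1 exonic. The median distance to the TSS was 1863 bp (14419 bp over all regions), and 25 regions lay within 10 kb. Control libraries had 28 and 27 peaks at these genes and IL-4 libraries 28 and 26, which is 27.5 ± 0.71 against 27.0 ± 1.41 (SD, n = 2 each). The difference of −0.5 peaks was smaller than the spread between replicates (exact permutation test, two-sided, p = 1.0, where 0.3333 is the smallest p this design allows).

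**Figure D1:**
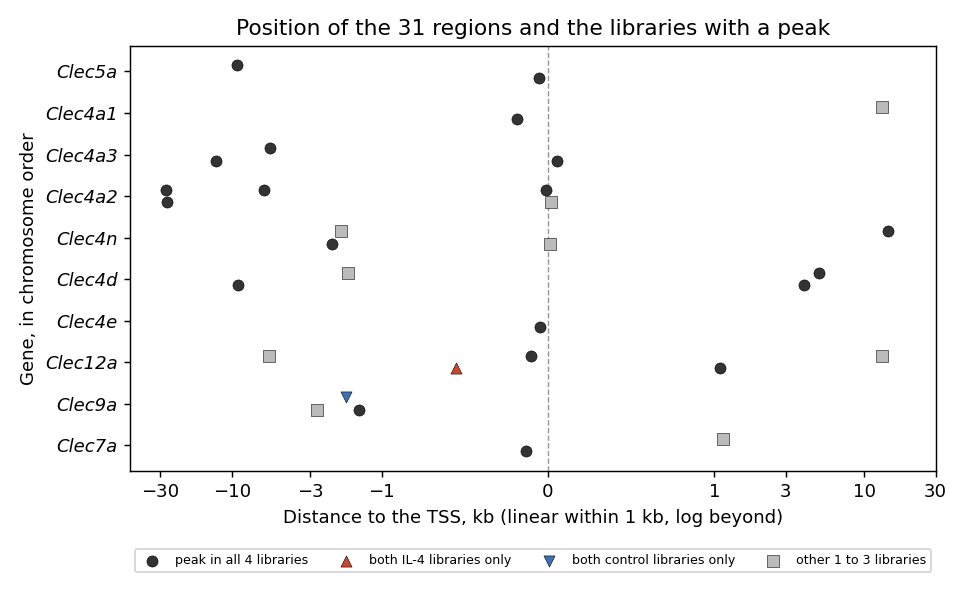
Position of the 31 regions relative to the TSS (x axis, kb, linear within 1 kb and logarithmic beyond) for each gene (y axis), with marker shape and colour for the libraries that had a peak. Points of a gene are offset vertically so that they do not hide each other. The only region with peaks in both IL-4 libraries alone is at Clec12a and the only one with peaks in both control libraries alone is at Clec9a.

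Among the 20 regions tested, the log2 change in normalised height (IL-4 minus control) was above 0 in 11 and below 0 in 9, with a median of 0.042 against −0.001 over all 25442 regions. The median of the receptor regions went from −0.167 to 0.16 when single libraries were left out. It then took all regions with a peak in the remaining libraries, so that its sign depended on the libraries and regions used. None of the 20 passed an adjusted p of 0.05 (limma, Benjamini-Hochberg over all regions), a threshold that 0.0236% of all regions passed. At an unadjusted p of 0.05 there were 3, all of them lower in IL-4, against 8.28% of all regions in either direction and 4.15% in the lower direction. These were the Clec5a region at −9240 bp, the Clec4a2 region at −6058 bp and the Clec12a region at 1098 bp, and none of them was a promoter. In such bulk libraries, fewer cells with open DNA at a site and less open DNA per cell cannot be told apart.

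As deposited, heights of both IL-4 libraries lay below both control libraries in 6 of the 20 regions (29.3% of all regions tested) and above them in 1 (8.83%). After quantile normalisation the counts were 4 below (18.6%) and 5 above (19.2%), the latter at Clec4a2 −27058 and −9 bp, Clec4a3 −5556 bp, Clec4d 4980 bp and Clec4e −49 bp. In the fit to all 4 libraries, promoter regions showed a narrower range than the others, which were more numerous. With single libraries left out, promoter changes ran from −0.82 (Clec5a −57 bp) to 0.94 (Clec4a1 −187 bp). Those of named regions elsewhere ran from −1.92 (Clec5a −9240 bp) to 1.14 (Clec4a2 −27354 bp). The difference in range was not tested. The 7 promoter regions tested had changes from −0.27 to 0.51 with a median of 0.23, 6 of them above 0 (median of 0.039 over 7919 promoter regions, 54.2% above 0). The number above 0 depended on the library, and was 4 of 7 without control replicate 1 or IL-4 replicate 1, 6 without control replicate 2 and 7 without IL-4 replicate 2. The 13 regions elsewhere spanned −1.61 to 0.65 with a median of −0.05, 5 of them above 0 (median of −0.025 over 17523 regions, 48.0% above 0).

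**Figure D2:**
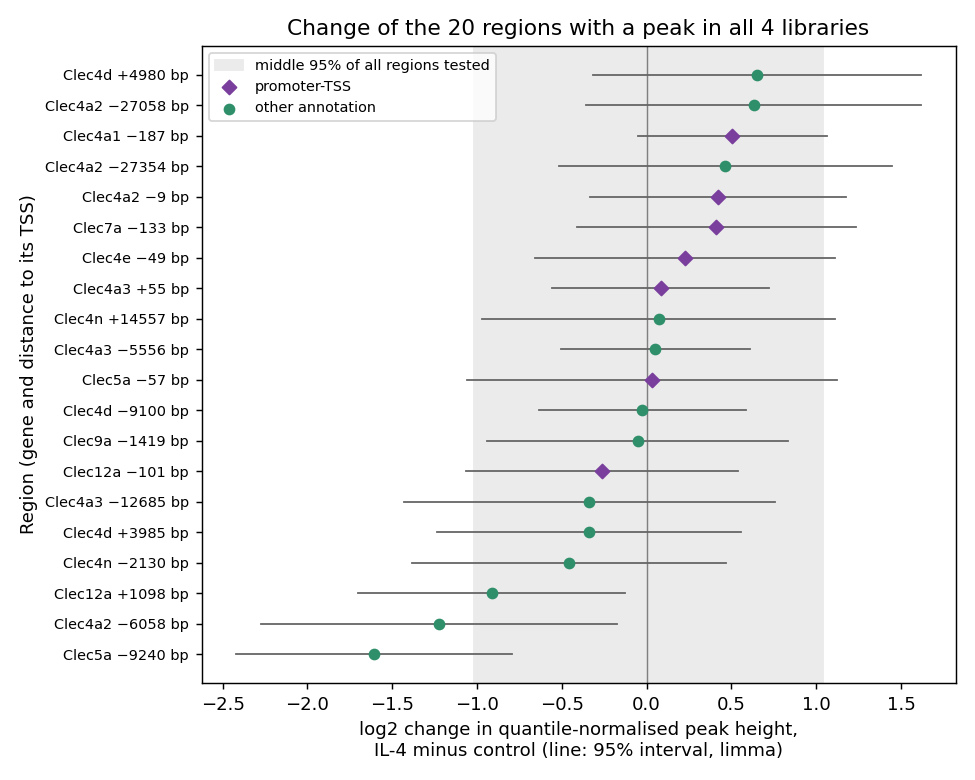
The log2 change in quantile-normalised peak height, IL-4 minus control (x axis), for the 20 receptor regions with a peak in all 4 libraries (y axis), with points for the limma estimate and lines for its 95% interval. The grey band holds the middle 95% of all regions tested (−1.02 to 1.04), and only the regions at Clec5a −9240 bp and Clec4a2 −6058 bp lie outside it.

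Clec5a, the DAP12-coupled receptor also known for binding flaviviruses, had 2 regions. The region at −9240 bp (chr6:40594855-40595464) reached heights of 19.6 and 25.4 in control and 8.74 and 4.61 in IL-4 libraries. The control heights stood at the 87.5th and 95.4th percentiles of their own libraries, and the IL-4 heights at the 56.7th and 31.6th, without overlap between the groups. The log2 change was −1.61 (SE 0.407, 95% interval −2.42 to −0.79; unadjusted p = 0.000225, adjusted p = 0.173), which ranked 30th of the 25442 regions by p and 45th from the lowest by change. Between same-numbered libraries it was −1.03 and −2.18. With the adjusted p over the threshold, this difference was not called.

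The peaks inside this region also differed in extent. Control replicate 1 had a single peak over all 610 bp, and control replicate 2 had peaks of 252 bp (height 25.4) and 204 bp (8.87). IL-4 replicate 1 had peaks of 217 bp (8.74) and 101 bp (3.19), and IL-4 replicate 2 had peaks of 217 bp (4.61) and 156 bp (4.48). Peaks thus covered 610 and 456 bp in the control libraries and 318 and 373 bp in the IL-4 libraries. The file annotation called the region an intron of a non-coding transcript, whereas the RefSeq annotation of GRCm38.p6 placed no gene body there.

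**Figure D3:**
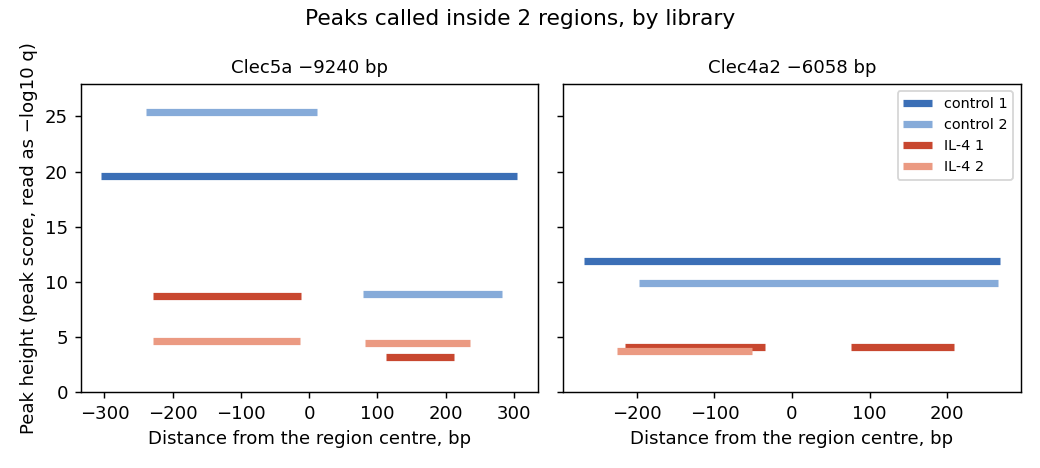
Peaks called within the Clec5a −9240 bp region (left) and the Clec4a2 −6058 bp region (right), drawn from their start to their end as distance from the region centre (x axis, bp) at their height (y axis, peak score read as −log10 q), 1 colour per library. In both regions the peaks of the IL-4 libraries are lower than the tallest peak of either control library.

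The Clec5a promoter region at −57 bp (chr6:40585744-40585959) held the STAT6-type site and had heights of 6.57 and 8.33 in control and 12.7 and 3.32 in IL-4 libraries. The IL-4 replicates lay on either side of the controls, and the change was 0.03 (SE 0.544, adjusted p = 0.994). It was −0.82 without IL-4 replicate 1, 0.87 without IL-4 replicate 2, −0.23 without control replicate 1 and 0.29 without control replicate 2, so its sign depended on single libraries of both groups. The changes of the gene thus differed by region, with a mean of −0.79 ± 1.16 (SD over 2 regions).

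Clec4d (MCL) and Clec4e (Mincle) are neighbours that encode partner receptors for mycobacterial cord factor. No region overlapped the Clec4d TSS. Its region at −9100 bp (chr6:123252832-123253167), near the enhancer named above, had heights of 19.1 and 20.7 in control and 17.2 and 17.0 in IL-4 libraries. As deposited, both IL-4 values were below both control values. After normalisation the change was −0.02 (SE 0.306, 95% interval −0.64 to 0.59, adjusted p = 0.993), and the interval includes changes in either direction. The study found Clec4d mRNA repressed by IL-4. For selected repressed genes it reported STAT6-bound enhancers with less RNA polymerase II and H3K27 acetylation. Enhancer RNA also fell at the enhancers it examined, but not without STAT6. Those measures differ from the peak heights used here.

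The Clec4d region closest to the TSS, at −1673 bp (chr6:123260319-123260550) with the STAT6-type site, had heights of 8.55 and 8.27 in the control libraries and 4.14 in IL-4 replicate 1, and no peak in IL-4 replicate 2. Lacking a peak in 1 library, it was not tested. In intron and exon, the Clec4d region at 3985 bp had heights of 13.2 and 12.6 in control and 15.0 and 4.98 in IL-4 libraries (change −0.34, adjusted p = 0.898), with the IL-4 replicates on either side of the controls. Without IL-4 replicate 2 this change was 0.29. The region at 4980 bp, in exon 3, had heights of 5.71 and 10.2 in control and 11.1 and 9.27 in IL-4 libraries and the highest change of all receptor regions, 0.65 (SE 0.482, adjusted p = 0.775). The groups overlapped as deposited, whereas both normalised IL-4 values were above both control values. This change was 0.13 without control replicate 1 and 1.13 without control replicate 2.

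Clec4e had a single region, its promoter at −49 bp (chr6:123289783-123290070), with a C/EBP site (TTGCACAA). Heights of 10.8 and 9.53 in control and 11.0 and 9.13 in IL-4 libraries made it the most even of the receptor promoters with a peak in every library. As deposited the IL-4 values enclosed the control values, and the change was 0.23 (SE 0.442, adjusted p = 0.936).

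Clec4n (Dectin-2), the receptor for fungal mannans, had 4 regions, of which 2 were found in a single control library. The promoter region at 10 bp (chr6:123229770-123229937) had a height of 5.03 in control replicate 1 alone, and the region at −1863 bp a height of 2.09 in control replicate 2 alone. The region at −2130 bp (chr6:123227598-123227834), with a PU.1 site and a STAT site (TTCCTGGAA), had heights of 11.1 and 12.7 in control and 8.42 and 6.34 in IL-4 libraries. Both IL-4 values were the lower ones, and the change was −0.46 (SE 0.462, adjusted p = 0.855), or −0.28 without control replicate 2. The intronic region at 14557 bp had heights of 7.56 and 6.89 in control and 7.96 and 5.05 in IL-4 libraries (change 0.07, adjusted p = 0.987).

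Clec7a (Dectin-1), the β-glucan receptor, had a promoter region at −133 bp (chr6:129472693-129473028) with the STAT6-type site. Its heights were 14.4 and 8.50 in control and 11.8 and 13.5 in IL-4 libraries, and both IL-4 values lay between the controls. The change was 0.41 (SE 0.410, adjusted p = 0.855), and was 0.11 without control replicate 2, 0.16 without IL-4 replicate 2 and 0.71 without control replicate 1. A region in intron 1, at 1145 bp, had heights of 3.27 and 6.35 in control libraries and 9.86 in IL-4 replicate 1, and no peak in IL-4 replicate 2.

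Clec9a (DNGR-1), which senses actin of dead cells and marks type 1 dendritic cells, had no region at its TSS and 3 regions upstream, inside the body of Clec12b in the RefSeq annotation. The control-only region at −1721 bp (chr6:129407086-129407229) had heights of 3.39 and 4.19 in the control libraries. Control-only regions made up 4.33% of all regions, and this was the single one among the 31. At −1419 bp, heights were 10.2 and 12.4 in control and 9.82 and 8.37 in IL-4 libraries, with a change of −0.05 (SE 0.444, adjusted p = 0.988). At −2683 bp, heights were 3.31 in control replicate 1 and 3.13 and 4.83 in the IL-4 libraries. Of the 3 other type 1 dendritic cell markers, Flt3 and Zbtb46 had a promoter peak in 3 libraries and Xcr1 in none.

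Clec12a (MICL), the inhibitory receptor for uric acid crystals, had 5 regions. The region at 1098 bp in intron 1 (chr6:129351171-129351467) had heights of 15.6 and 23.2 in control and 7.90 and 9.44 in IL-4 libraries, without overlap. The change was −0.91 (SE 0.393, 95% interval −1.70 to −0.13; unadjusted p = 0.0239, adjusted p = 0.539). It was −0.53 without control replicate 2, the highest of the 4 libraries, and −1.32 without control replicate 1.

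The IL-4-only region of Clec12a, at −551 bp (chr6:129349627-129349771), had heights of 4.11 and 4.25 in the IL-4 libraries. These were low beside the medians of 7.69 and 6.41 of the same libraries. IL-4-only regions made up 2.53% of all regions. The file annotation placed this region in the promoter of a transcript that starts further downstream, and its centre lies −84 bp from the start of the Clec12a gene in the RefSeq annotation. The neighbouring promoter region at −101 bp, with a C/EBP site (TTGCGCAA), had heights of 13.6 and 15.5 in control and 14.4 and 7.27 in IL-4 libraries (change −0.27, SE 0.400, adjusted p = 0.920), with overlapping groups. When peaks within 500 bp of each other were merged, the −551 bp region joined its neighbour and no IL-4-only region was left. The same setting left no control-only region at Clec9a.

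The remaining Clec12a regions were not tested. At 13191 bp, in intron 5, heights were 5.63 and 11.8 in control libraries and 10.7 in IL-4 replicate 1. At −5677 bp, heights were 9.75 in control replicate 1 and 2.49 in IL-4 replicate 2. Parts of these sequences recur in the genome, with 1 copy for 13191 bp (92.7% identical) and 3 for −5677 bp (best 95.9% identical).

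Clec4a2 (DCIR), which carries the inhibitory motif, had 5 regions. The region at −6058 bp (chr6:123116364-123116900) had heights of 11.9 and 9.90 in control and 4.11 and 3.73 in IL-4 libraries, with the groups well apart. The change was −1.22 (SE 0.524, 95% interval −2.27 to −0.17; unadjusted p = 0.0233, adjusted p = 0.537), and it stayed between −1.34 and −1.12 when single libraries were left out. Peaks covered 537 and 465 bp of it in the control libraries and 315 and 176 bp in the IL-4 libraries. This sequence has 57 similar copies in the genome, the best of them 85.2% identical, and how reads were divided among copies is not given in the sources used here.

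A second repeated region of Clec4a2, at −27354 bp, has 2 copies, the best of 98.3% identity at chr6:123149347-123149585. Its heights were 12.8 and 5.53 in control and 17.8 and 5.51 in IL-4 libraries (change 0.47, SE 0.490, adjusted p = 0.865). In both groups replicate 1 was over 2 times as high as replicate 2. Beside it, at −27058 bp, heights were 6.50 and 8.06 in control and 8.50 and 10.5 in IL-4 libraries, and this was the single receptor region with both deposited IL-4 values above both controls (change 0.63, SE 0.493, adjusted p = 0.788). This change was 0.33 without IL-4 replicate 2, 0.37 without control replicate 1 and 0.95 without IL-4 replicate 1.

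Clec4a2 has alternative first exons, and a promoter region lay at each of 2. The region at −9 bp had heights of 10.7 and 14.9 in control and 15.3 and 13.6 in IL-4 libraries (change 0.42, SE 0.377, adjusted p = 0.822), and the change was 0.08 without control replicate 1 and 0.76 without control replicate 2. It has 1 copy elsewhere in the genome, 82.2% identical over 99.8% of its length. The region at 21 bp was found in 1 library of each group, with a height of 11.9 in control replicate 1 and 5.31 in IL-4 replicate 2.

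Clec4a1 held the tallest receptor peak, in its promoter at −187 bp (chr6:122921409-122921886), which has the STAT6-type site. Heights were 28.0 and 15.7 in control and 21.6 and 34.3 in IL-4 libraries, and the replicates of each group differed by more than the group means did. The change was 0.51 (SE 0.278, unadjusted p = 0.0749, adjusted p = 0.647), the highest among the promoters. Its size and this rank rested on single libraries. It was 0.067 without IL-4 replicate 2, when the highest promoter was that of Clec5a at 0.87, 0.16 without control replicate 2, when it was the Clec4a2 promoter at 0.76, and 0.94 without IL-4 replicate 1. The region at 13236 bp, past the gene end, had heights of 4.51 in control replicate 2 and 3.81 and 9.14 in the IL-4 libraries.

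Clec4a3 had 3 regions, all with a peak in every library. Its region at −5556 bp, with the remaining STAT6-type site, had heights of 23.1 and 20.8 in control and 22.9 and 17.5 in IL-4 libraries (change 0.05, SE 0.279, adjusted p = 0.981). The promoter region at 55 bp had heights of 16.3 and 20.1 in control and 21.2 and 13.0 in IL-4 libraries (change 0.08, adjusted p = 0.971). The region at −12685 bp had heights of 5.97 and 8.72 in control and 7.22 and 3.22 in IL-4 libraries (change −0.34, adjusted p = 0.926). In all 3 the groups overlapped as deposited.

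**Figure D4:**
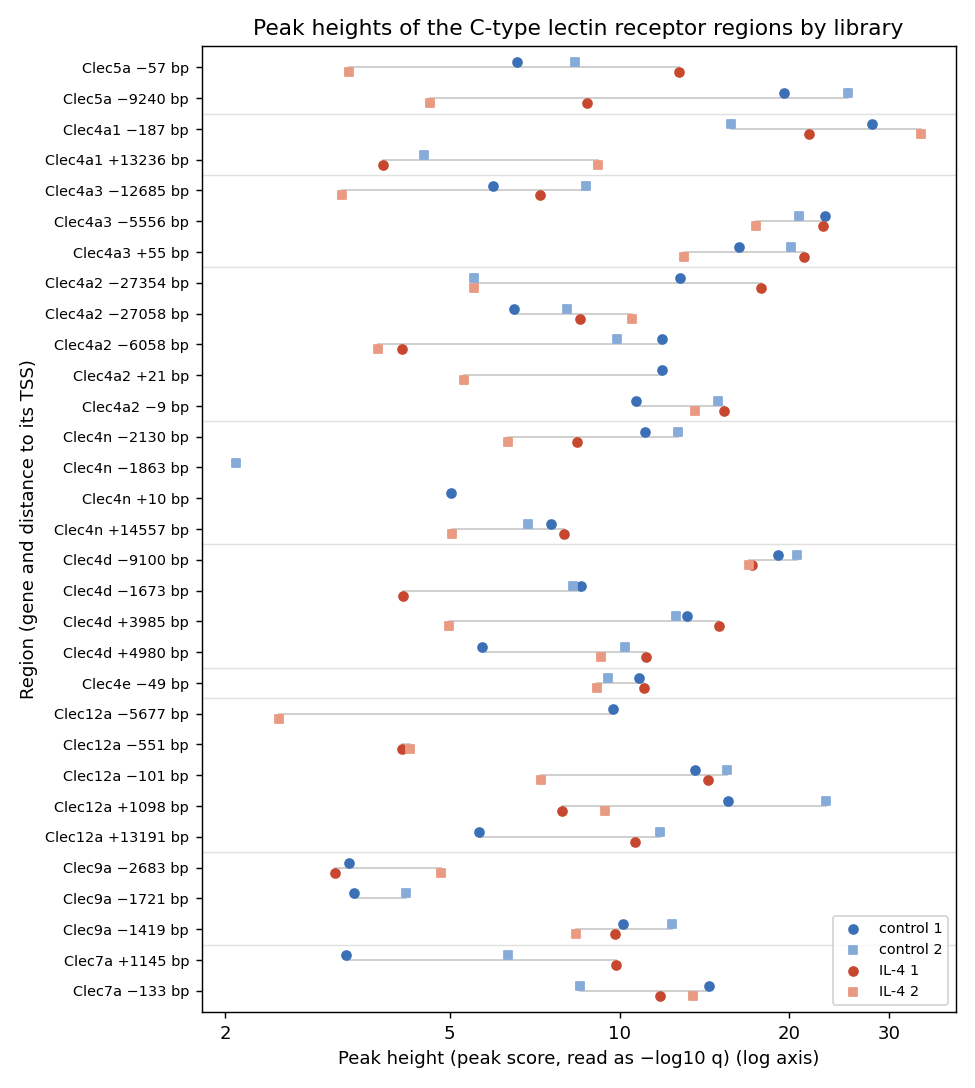
Peak height (x axis, peak score read as −log10 q, log axis) of each of the 31 receptor regions (y axis, gene and distance to its TSS) in each library, blue for control and red for IL-4, with circles for replicate 1 and squares for replicate 2. A missing symbol means that the library had no peak there. Among regions with a peak in all 4 libraries, both red symbols are left of both blue ones in 6, at Clec5a, Clec4a2, Clec4n, Clec4d, Clec12a and Clec9a, and right of them in 1, at Clec4a2 −27058 bp.

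By place on the chromosome, the cluster from Clec4a1 to Clec4e had 14 regions tested, 9 above 0 and 5 below, with a median change of 0.08. The cluster from Clec12a to Clec7a had 4 tested, 1 above and 3 below, with a median of −0.16. Each cluster and Clec5a held 1 of the 3 regions with an unadjusted p under 0.05. Means over the regions of a gene ran from −0.79 at Clec5a and −0.59 at Clec12a to 0.41 at Clec7a and 0.51 at Clec4a1, the last 2 from single regions. Leaving out single libraries moved these means to between −1.36 and −0.21 at Clec5a, −0.89 and −0.23 at Clec12a, 0.11 and 0.71 at Clec7a, and 0.067 and 0.94 at Clec4a1. They were lowest in size without IL-4 replicate 2 at Clec5a and Clec4a1, and without control replicate 2 at Clec7a. Each mean took all regions with a peak in the remaining libraries, so the regions could differ between fits. The −0.23 at Clec12a, without IL-4 replicate 2, included the region at 13191 bp. In that fit the regions at 1098 and −101 bp had changes of −1.19 and 0.054.

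Genes that carry the signal of these receptors were followed in the same way. For 11 adaptors and kinases of the Syk-CARD9 route (Fcer1g, Tyrobp, Hcst, Syk, Card9, Bcl10, Malt1, Plcg2, Vav1, Prkcd and Src), 68 regions were found and 30 tested. None was called by limma, and 1 had an unadjusted p under 0.05 (against 8.28% of all regions tested). Changes were above 0 in 11 and below in 19, where 49.9% of all regions tested were above 0. The changes ran from −1.18 to 0.625 with a median of −0.18 (−0.001 over all regions tested). Promoters of 9 of the 11 had a peak in all 4 libraries. The lowest change was at 1 of the 3 promoter regions of Tyrobp, which encodes DAP12, the adaptor of Clec5a, at −896 bp. This region had heights of 18.5 and 21.4 in control and 5.42 and 10.3 in IL-4 libraries (change −1.18, SE 0.411, unadjusted p = 0.00567, adjusted p = 0.374), without overlap. In IL-4 replicate 1 the tallest Tyrobp promoter peak, at 7.26, lay in another of the 3. Of the 68 regions, 3 were control-only (against 4.33% of all regions) and 1 was IL-4-only (against 2.53%). A control-only region lay at the promoter of Vav1, a guanine nucleotide exchange factor downstream of Syk, with heights of 6.08 and 4.97. The others were at Hcst 209 bp and Plcg2 45654 bp. The IL-4-only region was at Plcg2 −50910 bp, with heights of 7.96 and 2.49.

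For the phosphatases that inhibitory receptors recruit (Ptpn6, Ptpn11 and Inpp5d), 8 of 18 regions were tested. None was called, and 1 had an unadjusted p under 0.05 (against 8.28% of all regions tested). Changes were above 0 in 3 and below in 5 (49.9% of all regions tested were above 0). They ran from −1.09 to 0.40 with a median of −0.08. The intronic Inpp5d region at 17389 bp had heights of 15.2 and 21.1 in control and 7.36 and 6.96 in IL-4 libraries (change −1.09, SE 0.417, adjusted p = 0.434). Of 18 further C-type lectin genes, 16 had a region, and 15 of their 38 regions were tested. None was called, and 2 had an unadjusted p under 0.05 (against 8.28% of all regions tested). Changes were above 0 in 5 and below in 10 (49.9% of all regions tested were above 0). The median was −0.25 and the highest change 0.93. The lowest was −1.09 at Mrc1, the mannose receptor of alternatively activated macrophages, at −18466 bp, with heights of 10.6 and 13.6 in control and 3.43 and 6.72 in IL-4 libraries (SE 0.521, adjusted p = 0.584).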

How the data were processed

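ATAC-seq peak lists of 4 libraries (control n = 2, IL-4 n = 2, replicates by label) were analysed. The authors aligned reads to mm10, called peaks in each library on its own with MACS2 at a q-value limit of 0.01 by their methods, removed blacklisted regions and annotated peaks with HOMER. The submitters' processing notes name BWA 0.7.10, SAMtools 0.1.19, MACS2 2.0.10 and HOMER 4.2. Handling of the Tn5 shift and of duplicates is not given in the sources used here. The deposited peak scores carry no stated unit and were taken to be −log10 q-values. Of all peaks, 1262 scored from 1.3 to below 2, which on that scale is above the q-value limit of 0.01, and this conflict could not be settled without reads. Reads were not analysed here, so depth is unknown, DiffBind (used by the authors) was not run, and the number of libraries limits precision.

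Peaks on the 19 autosomes, X and Y were merged at an overlap of 1 bp, and a region took the highest score of each library and the gene name of its tallest peak. For regions present in every library, log2 scores were quantile-normalised and compared by limma 3.58.1 (R 4.3.3) using lmFit and eBayes with a variance trend and no block, with Benjamini-Hochberg adjustment over 25442 regions at 0.05. Merging was repeated with bedtools 2.31.1 on the deposited peaks, and the motif search was tested on a short made-up sequence. The fit was tested on simulated heights, with planted changes larger in size than any receptor change. Copies were searched with blastn 2.17.0 (at least 50% of the length). Of 109 receptor peaks, 102 had a transcript of the RefSeq annotation and 96 of these had the same TSS distance within 2 bp (largest difference 626 bp). List genes were matched through RefSeq transcripts, and 1 pathway gene and 1 region sequence are not reported here. Named in full by rule were the region closest to each TSS, group-specific regions, the 5 highest and 5 lowest changes and the upstream Clec4d region. Other regions are given for completeness. The members, lists, tests and this rule were chosen with earlier results of these data known. Alternatives covered normalisation, trend, block, score limit, merging, gene assignment, missing peaks and leaving out each library.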

Additional observations from a re-analysis of the deposited data

How the results depend on the processing

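No receptor region was called under any alternative tried, and 10 of the 17 named regions tested kept their sign throughout. The count over all regions, 4 higher and 2 lower in IL-4, was 0 higher without normalisation, 0 higher and 0 lower without a variance trend, and 0 and 0 when regions with a peak in at least 2 libraries entered with missing heights set to 1.3. Leaving out single libraries gave 0 to 14 higher (14 without control replicate 2) and 0 lower. The replicate block gave 11 higher and 3 lower. The numbers were not taken as pairs, since the differences between replicates of both groups correlated with r = 0.0068 over regions. Under the block the Clec5a region at −9240 bp had an adjusted p of 0.0644, against 0.173 without it and 0.0644 to 0.801 over all alternatives. Without normalisation the median of all regions was −0.211, and changes were taken relative to it. Merging peaks within 500 bp gave 0 IL-4-only and 0 control-only receptor regions. Leaving out single libraries gave 1 to 2 and 1 to 4 of them, receptor medians of −0.167 to 0.16 and −1.5 to 0.5 receptor peaks. The sign also turned in 7 named regions, with ranges over left-out libraries of −0.82 to 0.87 (Clec5a −57 bp), −0.16 to 0.33 (Clec4a3 55 bp), −0.20 to 1.14 (Clec4a2 −27354 bp), −0.17 to 0.12 (Clec4d −9100 bp, and 0.022 by median centring), −0.98 to 0.29 (Clec4d 3985 bp), −0.58 to 0.054 (Clec12a −101 bp) and −0.30 to 0.17 (Clec9a −1419 bp). With a library left out, the lone library of a group was assumed to vary like the others. Leaving out regions with a near-copy in the genome, an alternative chosen after seeing the data, gave a receptor median of 0.034. The cause of these shifts was not tested.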
